A study of Mus musculus with 2 samples.

Results

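CTCF binding was described at 8 genes of cholesterol synthesis in liver of newborn mice. The members are Hmgcs1, Mvd, Fdps, Fdft1, Sqle, Lss, Cyp51 and Dhcr7, all enzymes of synthesis, so no gene of cholesterol uptake is among them. A peak counted as a member when its summit lay in one of these genes or within 20 kb of its ends, on the mouse build mm10 with the GENCODE M21 annotation. This rule took 30 of the 57220 peaks of the optimal list, which the authors thresholded by the irreproducible discovery rate (IDR), and no peak was taken for more than 1 gene. The series holds CTCF ChIP-seq of B6NCrl liver at postnatal day 0 in 1 group of 2 replicates, with no treatment and no other genotype. Livers from several dissections were pooled and pulverized, both replicates carry 1 biosample label, and sex is given as not collected. Although the labels call the samples biological replicates, the spread between them may therefore be technical. The labels name a control experiment, which was not analysed here. Signal below is the value the authors deposited for each peak, on a scale that is not stated, and it is compared within a list. Peaks carry no expression values, so the tissue could not be checked against marker genes.

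Cholesterol is built from acetyl-CoA through mevalonate, isoprenoid units, squalene and lanosterol, and the liver is a main site of this synthesis. The genes are switched on together by SREBP2, a membrane-bound transcription factor that is released when sterols run low and that binds sterol regulatory elements near their starts, together with NF-Y at CCAAT boxes and Sp1 at GC boxes. CTCF is not a member of that circuit. It is a zinc finger protein that binds a directional DNA motif and stops cohesin, which leaves loops that most often run between motifs facing each other.

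The strongest 5 CTCF sites at these genes lay outside them or, at Dhcr7, over an internal start, and their sequences show how well each fits the motif. They are printed 5' to 3' on the strand that carries the 14-base CTCF core, with the core match in capitals and mm10 coordinates of the printed window.
Fdft1, 16.4 kb upstream, chr14:63195942-63195995, minus strand: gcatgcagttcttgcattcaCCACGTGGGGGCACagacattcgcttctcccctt
Dhcr7, internal start, chr7:143829616-143829645, plus strand: gactctcgCCAGGAGAGGGCGActgtaact
Lss, 18.2 kb upstream, chr10:76513387-76513440, minus strand: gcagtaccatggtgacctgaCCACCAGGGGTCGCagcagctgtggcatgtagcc
Fdps, 2.73 kb past the gene end, chr3:89090821-89090874, plus strand: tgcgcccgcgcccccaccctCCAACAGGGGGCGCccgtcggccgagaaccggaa
Fdps, 5.92 kb past the gene end, chr3:89087635-89087688, plus strand: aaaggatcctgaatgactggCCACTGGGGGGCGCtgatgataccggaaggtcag
The cores at Lss and at both Fdps sites differ from the consensus at 1 position. Those at Fdft1 and Dhcr7 differ at 2.

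All 8 genes had a peak in the gene or within 20 kb, where 80.8% of the 21938 protein-coding genes had one. Of the 30 peaks, 15 lay upstream, 8 within the gene and 7 downstream. The number of peaks was 7 at Fdft1, 6 at Mvd, 6 at Fdps, 3 at Lss, 3 at Dhcr7, 2 at Hmgcs1, 2 at Sqle and 1 at Cyp51. Since the windows differ in length, the density was compared too. It had a median of 4.59 peaks per 100 kb at the 8 genes and of 4.13 at all protein-coding genes. Fdps had the highest density, 12.4 per 100 kb, and Cyp51 the lowest, 1.57. At the edge of the 20 kb window, the farthest peak inside lay 18.2 kb from Lss (365.4) and the nearest outside 23.4 kb from Sqle (178.4).

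**Figure D1:**
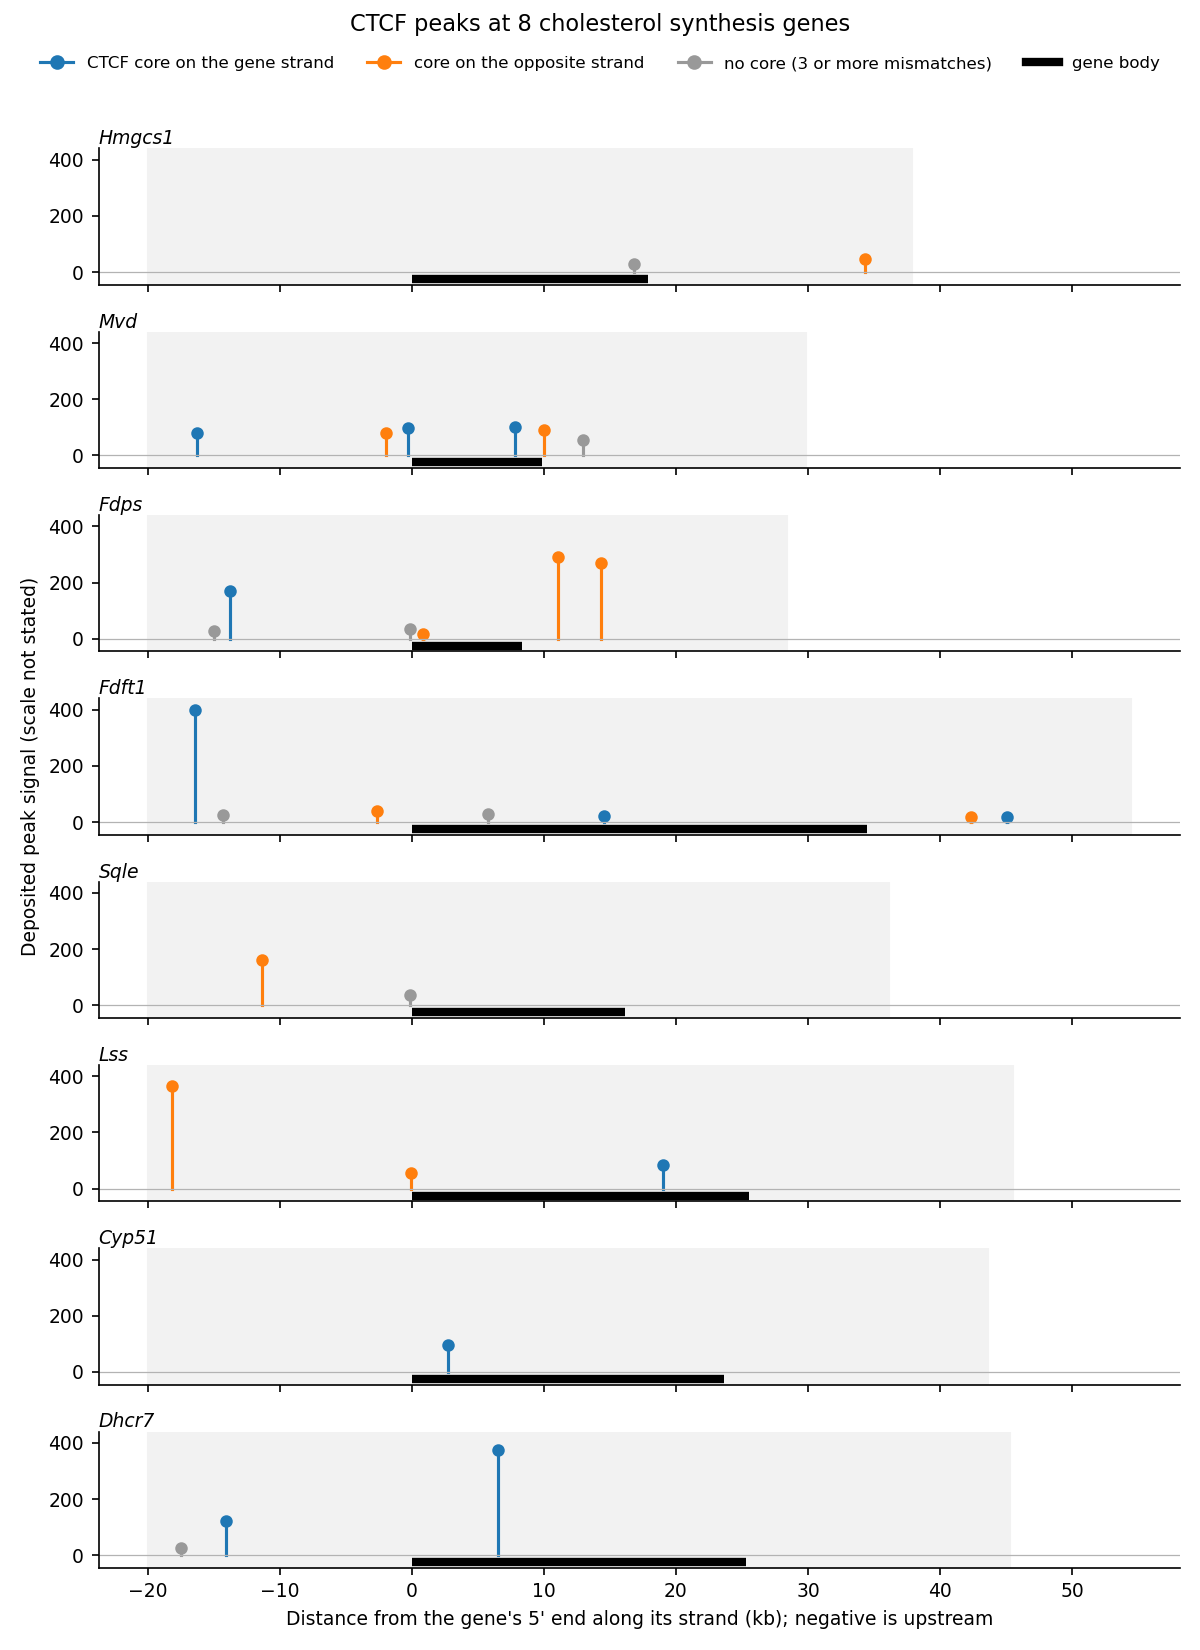
Each panel is 1 gene in pathway order, with the distance of the peak summit from the gene's 5' end in kb along its strand on the horizontal axis and the deposited peak signal on the vertical axis. The grey field is the gene with 20 kb on both sides. Blue peaks have the CTCF core on the strand of the gene, orange peaks on the opposite strand, and grey peaks have no core. The tallest peaks stand 16.4 kb upstream of Fdft1, 6.48 kb inside Dhcr7 and 18.2 kb upstream of Lss.

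Hmgcs1 makes HMG-CoA, the precursor of mevalonate, and had no CTCF peak within 1 kb of any of its starts. The gene lies at chr13:119690379-119708260 on the plus strand. A peak in its 3' UTR had a signal of 29.2, with 11.4 in replicate 1 and 17.7 in replicate 2. It lay 16.9 kb from the 5' end and had no core. The other peak stood 16.4 kb past the gene, in an exon of a noncoding transcript of the kinase gene Nim1k, with a signal of 45.2 (24.4 in replicate 1, 20.3 in replicate 2). Replicates ordered these peaks alike, but both were below the median signal of the list, 71.2.

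Mvd decarboxylates mevalonate diphosphate to the isoprene unit, and its peaks were of similar height. The gene lies at chr8:122433601-122443422 on the minus strand. The 6 signals ran from 54.2 to 99.5, all within 3.12 kb of the gene except a peak of 78.0 that lay 16.3 kb upstream in an intron of Snai3 (40.3 in replicate 1, 39.9 in replicate 2). A peak of 97.9 stood 313 bp upstream of the 5' end, with 52.7 in replicate 1 and 44.1 in replicate 2. An intronic peak had 99.5 (54.0 in replicate 1, 44.8 in replicate 2). A peak of 90.8 lay 200 bp past the gene end, where it is 471 bp from a start of Cyba, the gene of an NADPH oxidase subunit. It had 45.5 in replicate 1 and 44.6 in replicate 2. The peak 3.12 kb past the gene end, in an intron of Cyba, was weaker and less even between replicates, with 36.1 in replicate 1 and 18.1 in replicate 2. A peak of 79.8 stood 1.98 kb upstream in an exon of the long noncoding RNA gene Gm20735 (32.6 in replicate 1, 46.3 in replicate 2). All 6 also lie within introns of Gm20388, a predicted coding gene on the other strand that spans the locus.

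Fdps joins isoprene units to farnesyl diphosphate and carried weak CTCF at its start but strong CTCF past its end. The gene lies at chr3:89093588-89101959 on the minus strand. The peak 178 bp upstream had a signal of 35.5 (16.5 in replicate 1, 21.1 in replicate 2). The weakest of all 30 peaks, 15.6, lay in a coding exon 877 bp inside the gene, and its core nevertheless had only 1 mismatch. This place is also 17 bp from a start of Gm43738, a predicted coding gene that overlaps Fdps. The peak reached 5.68 in replicate 1 and 7.97 in replicate 2. Past the gene, a peak of 290.7 lay in a coding exon of Rusc1, 812 bp from a start of that gene. It had 149.2 in replicate 1 and 140.6 in replicate 2. Its neighbour, in an exon of a noncoding Rusc1 transcript, had 270.1 (134.4 in replicate 1, 135.8 in replicate 2). Both peaks also lay in introns of Gm43738. Upstream, a peak of 170.0 lay 13.8 kb from the 5' end in intergenic sequence, with 89.3 in replicate 1 and 79.4 in replicate 2. The last, in a pseudogene upstream of that peak, had 25.8 and no core, with 14.1 in replicate 1 and 11.1 in replicate 2.

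Fdft1, squalene synthase, commits farnesyl diphosphate to sterols and lies at chr14:63145150-63179578 on the minus strand. It had the strongest and several of the weakest of the 30 peaks. The strongest, 397.2, lay in intergenic sequence 16.4 kb upstream and 2118 bp from the nearest coding-gene start, that of Neil2, the gene of a DNA repair glycosylase, with 193.9 in replicate 1 and 204.0 in replicate 2. Its rank was 1628 in the optimal list. The other 6 had signals from 16.8 to 40.7. The highest of these (40.7, with 21.8 in replicate 1 and 16.7 in replicate 2) lay 2.65 kb upstream, and an intronic peak of 29.4 had no core. A peak of 24.9 (11.1 in replicate 1, 15.1 in replicate 2) lay 54 bp from a start of Neil2 and had no core, and a peak of 22.2 (9.55 in replicate 1, 14.1 in replicate 2) lay 27 bp from an internal Fdft1 start that belongs to a retained-intron transcript. Weak peaks of 16.8 and 19.5 lay in introns of the protease gene Ctsb. The one of 16.8 differed most between replicates of all 30, with 14.4 in replicate 1 and 4.01 in replicate 2, while that of 19.5 had 7.37 in replicate 1 and 10.6 in replicate 2.

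Sqle, squalene epoxidase, a rate-limiting step of the sterol branch, had no peak within its body, chr15:59315077-59331192 on the plus strand. A peak stood 126 bp upstream of its 5' end with a signal of 38.2, and with 17.4 in replicate 1 and 19.3 in replicate 2. It had no core and its sequence was rich in G and C, 73.6% over the window around the summit (201 bp). The stronger peak lay 11.3 kb upstream (161.6, with 78.9 in replicate 1 and 84.0 in replicate 2), over a perfect core.

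Lss folds squalene epoxide into lanosterol and had 3 peaks of very different height. The gene lies at chr10:76531588-76557138 on the plus strand. The strongest, 365.4, lay 18.2 kb upstream in an intron of Mcm3ap, with 192.3 in replicate 1 and 176.7 in replicate 2. The peak at the promoter, 94 bp upstream of the 5' end, had 55.3 (24.7 in replicate 1, 30.4 in replicate 2). A peak of 83.1 lay in a coding exon, over a perfect core and 571 bp from the start of a retained-intron transcript, with 44.7 in replicate 1 and 38.5 in replicate 2.

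Cyp51 (chr5:4081145-4104746, minus strand) removes a methyl group from lanosterol and had only 1 peak, in an intron 2.77 kb from the 5' end and 1.41 kb from the nearest annotated start. Its signal was 95.9, with 55.0 in replicate 1 and 41.6 in replicate 2. The next peak outside the gene lay 40.6 kb away. Dhcr7 (chr7:143823145-143848410, plus strand), which reduces the last precursor to cholesterol, had its main peak over an internal start. That peak, 375.4, had its summit 3 bp from the start of a protein-coding transcript, in the 5' UTR and 6.48 kb from the gene's 5' end, with 196.4 in replicate 1 and 179.1 in replicate 2. Upstream, in introns of the neighbour Nadsyn1, peaks of 120.8 (73.2 in replicate 1, 47.2 in replicate 2) and 23.9 (11.1 in replicate 1, 11.2 in replicate 2) stood 14.1 and 17.5 kb away.

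By their strongest peak the genes ran Fdft1, Dhcr7, Lss, Fdps, Sqle, Mvd, Cyp51 and Hmgcs1. This order rests on the 20 kb window. Among peaks within 10 kb, the strongest at Fdft1, Lss, Sqle and Hmgcs1 were 40.7, 83.1, 38.2 and 29.2. The SD of the log2 ratio of replicate 1 over replicate 2 was 0.50 at the 30 peaks and 0.49 at all 55542 matched peaks. Fdft1, Dhcr7, Lss and Fdps lay less than this from their neighbour in the order, at log2 gaps of 0.08, 0.04 and 0.33, and so did Mvd and Cyp51 (0.05). The replicate ratios of the strongest Fdft1, Dhcr7, Lss and Fdps peaks were nearer even than the SD, at -0.07, 0.13, 0.12 and 0.09. In replicate 1 Dhcr7 came before Fdft1, and Cyp51 before Mvd. Fdps and Sqle differed by 0.85, Sqle and Mvd by 0.70 and Cyp51 and Hmgcs1 by 1.08, and these 3 steps had the same direction in both replicates. Dhcr7 also came before Lss, and Lss before Fdps, in both replicates, the latter by 0.37 in replicate 1 and 0.33 in replicate 2.

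Promoter peaks, with a summit within 1 kb of any annotated start of the gene, were found at 6 of the 8 genes, where 36.2% of all protein-coding genes had one. Hmgcs1 and Cyp51 had none. Among the stronger 28610 peaks of the list 3 of the 8 had one, Mvd, Lss and Dhcr7, and 18.5% of all protein-coding genes did. At Mvd this peak lay 313 bp upstream of the 5' end. At Lss it was the 83.1 peak in a coding exon, 571 bp from a retained-intron start and 19.1 kb from the 5' end. At Dhcr7 it lay over the internal start, 6.48 kb from the 5' end. The Lss peak 94 bp upstream of the 5' end, at 55.3, was below the list median of 71.2. Within 1 kb of the 5' end itself 4 of 8 had a peak, Mvd, Fdps, Sqle and Lss, against 28.3% of all protein-coding genes. With 8 genes chosen with results known, these shares are descriptions. The peaks at 5' ends were weak to middling. There were 5 of them, with signals from 15.6 to 97.9 and a median of 38.2, and the 6451 optimal peaks within 1 kb of any coding 5' end had a median of 52.5. A core was present at 3 of the 5 and at 43.1% of the 6451. GC content around these summits was 55.2% to 73.6%.

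The Lss promoter is printed because the peak, the core and sequence matches to the CCAAT and GC boxes lie together there. Binding of NF-Y, Sp1 or SREBP2 was not measured. The window runs from chr10:76531355-76531587 on the plus strand and ends at the base before the 5' end. Capitals mark 1 CCAAT box (written ATTGG on this strand), 2 GC boxes, and between the GC boxes the CTCF core, which is on the minus strand and so reads in reverse complement.
Lss promoter: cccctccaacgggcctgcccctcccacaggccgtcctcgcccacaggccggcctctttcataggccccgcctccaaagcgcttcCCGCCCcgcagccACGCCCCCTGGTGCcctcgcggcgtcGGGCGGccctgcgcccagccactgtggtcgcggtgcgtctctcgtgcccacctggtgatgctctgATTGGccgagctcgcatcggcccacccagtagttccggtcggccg
The RefSeq table (GRCm38.p6) gave promoter windows for 5 of the 8 genes, 7 windows in all, each 300 bases long. Dhcr7 gave more than 1 of these windows, and some of its windows overlap, so the 7 are not independent. CCAAT was present on either strand in 5 of these 7 windows and in 37.4% of all 32851 windows. GGGCGG was present in 6 of 7 and in 35.7% of all. The sterol element TCACNCCAC was present in 1 of 7, that of Hmgcs1, and in 1.24% of all. Only this form was sought, so a window without it is not shown to lack a sterol element. None of these 3 motifs contains another. The windows of Fdps, Fdft1 and Sqle were not analysed here.

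The core, with at most 2 mismatches and its centre within 50 bp of the summit, was found at 22 of the 30 peaks (73.3%). The exact 95% binomial interval, 54.1 to 87.7, covers counting error only and takes peaks of the same gene as independent. All optimal peaks had the core in 71.8%, and windows displaced by 1 kb in 3.43%. Strong and weak peaks of these genes differed in this. All 15 peaks among the stronger 28610 of the list carried the core, and of those 28610 peaks 84.2% did. Of the 15 weaker peaks 7 carried it, and of the weaker 28610 peaks 59.3% did. Median signal was 93.3 with the core and 29.3 without it at these genes, against 97.8 and 35.9 over the whole list. None of the 8 peaks without the core exceeded 54.2. The highest without it in the whole list was 574.5, but that is a maximum over 16132 peaks. The 2 perfect cores, at Sqle and in the Lss coding exon, had signals of 161.6 and 83.1, both below the median of 228.0 of all perfect cores, and the strongest peak, at Fdft1, had 2 mismatches.

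**Figure D2:**
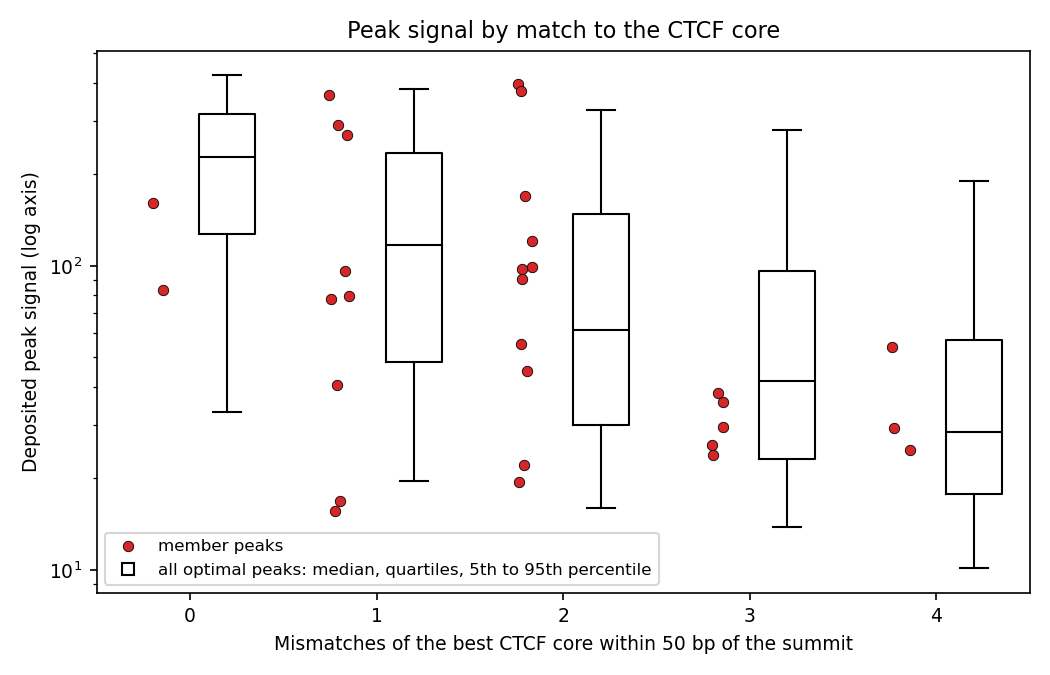
The horizontal axis gives the mismatches of the best core within 50 bp of the summit and the vertical, log axis the deposited signal; red points are the 30 member peaks, left of boxes for all optimal peaks (median, quartiles, whiskers from the 5th to the 95th percentile). The 8 member peaks with 3 or 4 mismatches lie between 23.9 and 54.2, while those with 0 to 2 span 15.6 to 397.2.

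Of the 22 cores, 5 lay in soft-masked sequence of the assembly, where repeats are written in lower case, 1 each at Hmgcs1, Mvd, Sqle, Cyp51 and Dhcr7. They are printed together to show how alike or unlike they are around the core, which is in capitals.
Mvd, intron, chr8:122435565-122435618, minus strand: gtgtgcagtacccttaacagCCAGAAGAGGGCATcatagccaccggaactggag
Sqle, 11.3 kb upstream, chr15:59303735-59303788, minus strand: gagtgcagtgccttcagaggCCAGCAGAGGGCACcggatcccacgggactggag
Dhcr7, 14.1 kb upstream, chr7:143809028-143809081, plus strand: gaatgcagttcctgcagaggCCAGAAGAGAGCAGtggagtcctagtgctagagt
Cyp51, intron, chr5:4101964-4102017, minus strand: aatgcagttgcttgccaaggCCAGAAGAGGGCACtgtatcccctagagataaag
Hmgcs1, 16.4 kb past the gene end, chr13:119724696-119724749, minus strand: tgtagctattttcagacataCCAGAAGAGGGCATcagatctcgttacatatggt
The core of the Mvd and Hmgcs1 sites was the commonest of all 6529 core sequences in the list. It stood under 2598 peaks, and every one of them was soft-masked. The Cyp51 core was the next, with 1435 peaks, all soft-masked. Outside the core, without gaps, the 10 pairs of masked sites shared 9 to 27 of 40 flanking bases, with a median of 14.5. The 136 pairs of unmasked sites shared 4 to 16, with a median of 10, and pairs of a masked and an unmasked site shared at most 19. The Mvd and Sqle sites shared 27 and the Sqle and Dhcr7 sites 25. The Hmgcs1 site shared 9 to 13 with the other 4, within the range of the unmasked pairs. The mouse genome is known for short interspersed repeats of the B2 family that carry CTCF motifs. Repeat families were not annotated in the files used here, so these sites were not assigned to one. Soft-masked cores made up 22.7% of the 22 here and 24.7% of all 41065 in the list. Masked cores of the whole list had a median signal of 50.1 and unmasked ones 129.1. The Sqle, Dhcr7, Mvd and Cyp51 peaks, at 161.6, 120.8, 99.5 and 95.9, were above the first of these medians, and the Hmgcs1 peak, at 45.2, below it.

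Cores pointed along the gene in 11 cases and against it in 11. Between the nearest core-bearing peaks beyond its ends, Hmgcs1, Mvd and Fdps lay between convergent cores, 3 of 8 genes, and 27.9% of 21640 protein-coding genes did. The span between these cores was 10.3 kb around Mvd, 24.9 kb around Fdps and 63.1 kb around Hmgcs1. At Mvd the pair was the peak 200 bp past the gene end and the promoter peak. At Fdps it was the Rusc1 peak of 290.7 and the upstream peak of 170.0. At Hmgcs1 it was the peak of 45.2 past the gene end and a peak of 21.4 that lay 28.8 kb upstream, outside the member window. Fdft1, Sqle, Cyp51 and Dhcr7 lay between cores of 1 direction and Lss between divergent ones. The median span was 72.9 kb at the 8 genes and 94.8 kb at all genes. Looping itself was not measured.

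All 30 peaks had a summit within 100 bp in both replicate lists, as had 97.1% of all optimal peaks. The optimal list was made with these same lists, so this is no independent check. Of the 30, 27 had the same summit in the conservative list, and 87.8% of all optimal peaks did. The 3 others were the weak peaks inside Fdps and in the introns of Ctsb. The gap between replicate summits had a median of 14 bp here and 9 bp in the list as a whole. The 3 strongest peaks ranked 1998, 2168 and 2275 in replicate 1 and 2706, 1234 and 2885 in replicate 2, for Dhcr7, Fdft1 and Lss in this order.

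**Figure D3:**
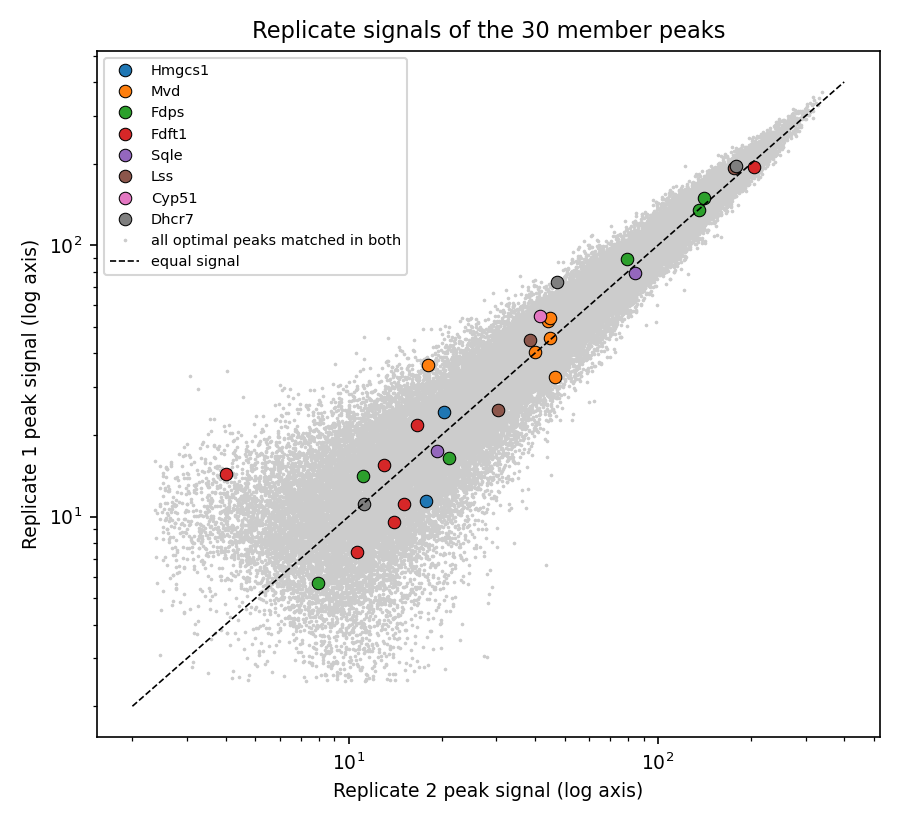
Signal of each peak in replicate 1 (vertical) against replicate 2 (horizontal), both on log axes, with the 30 member peaks coloured by gene over all matched optimal peaks in grey and a dashed line of equal signal. The points of strong peaks lie near the line, and the Ctsb peak counted at Fdft1 lies farthest from it, at 14.4 in replicate 1 and 4.01 in replicate 2.

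The other genes of the pathway and its control were taken from a list of 30. A promoter peak was found at 12 of them (40.0%, beside the 36.2% of all protein-coding genes), at the 5' end at 10, and any peak within 20 kb at 27. Among the genes with a promoter peak were the sterol reductase genes Tm7sf2 (370.8, with 189.4 in replicate 1 and 182.4 in replicate 2) and Lbr (133.1, with 70.3 in replicate 1 and 63.4 in replicate 2). Mvk, Pmvk, Idi1, Ggps1, Nsdhl, Hsd17b7, Ebp and Sc5d had peaks within 20 kb but none at a promoter, and Acat2 and Msmo1 had no peak there. In the regulatory circuit, the sterol sensor gene Scap had the strongest promoter peak of the list, 503.6 (254.5 in replicate 1, 251.4 in replicate 2), 26 bp from the 5' end. Srebf1 had 78.7. Srebf2 had none at a promoter, though 14 peaks lay in the gene or within 20 kb, the strongest at 387.0. Insig2 had 56.4 near an internal start, Insig1 13.3 with a match in replicate 2 only, and the sterol receptor gene Nr1h3 354.1, 8.13 kb from the 5' end.

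Among the genes of uptake and transport, Npc1, which exports cholesterol from lysosomes, had a promoter peak of 406.5 (208.6 in replicate 1, 199.0 in replicate 2). The ubiquitin ligase gene Mylip had 147.7, the HDL receptor gene Scarb1 39.1 and the exporter gene Abca1 20.3. Npc2, Npc1l1 and Soat2 had peaks nearby only, and Stard4 had none. The density at the 30 genes had a median of 4.47 peaks per 100 kb.

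**Figure D4:**
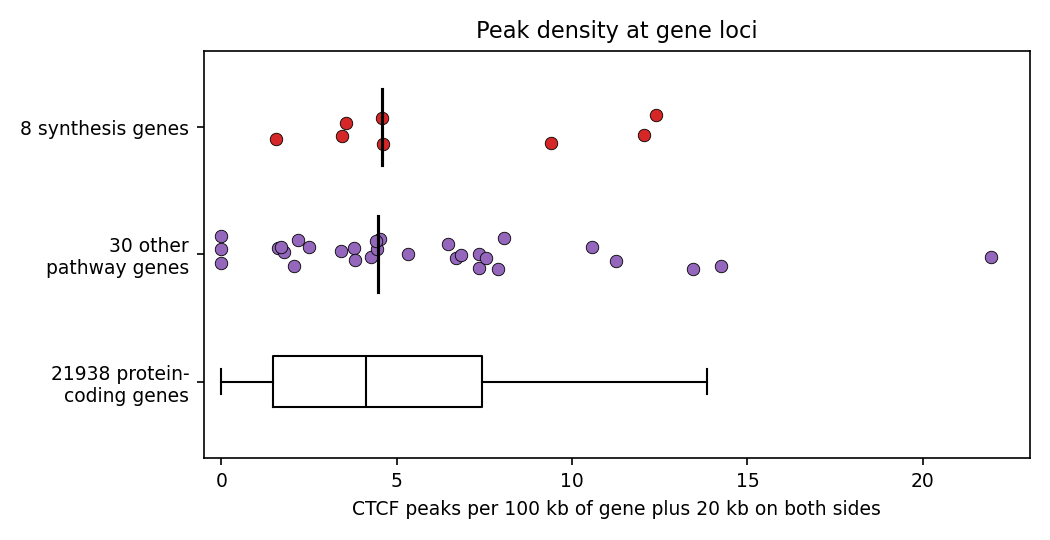
CTCF peaks per 100 kb of gene plus 20 kb on both sides, with 1 point per gene for the 8 synthesis genes and the 30 other pathway genes (vertical bars are medians, 4.59 and 4.47) above a box for all protein-coding genes (median 4.13, quartiles, whiskers from the 5th to the 95th percentile). Tm7sf2, at 22.0, lies beyond the upper whisker.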

How the data were processed

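The authors deposited narrowPeak lists on mm10, per the labels, and the signal of each peak is used as they deposited it. For its scale, the aligner, the peak caller and thresholds, the answer is not given in the sources used here. Each replicate has its own list, which ends at 300000 peaks. The optimal and conservative lists were made from the replicate and pooled lists by IDR thresholding, per the text deposited with the samples. IDR keeps peaks whose rank repeats between lists. No read counts were used, so depth is unknown.

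Summits were set against GENCODE M21 and GRCm38.p6, the assembly of mm10 (no peak ran past a chromosome end). Replicate peaks were matched by summits within 100 bp. Cores were sought on both strands with python 3.11.15 and numpy 2.4.6, a search tested on planted motifs. With 1 group no test was made, and shares stand beside those of all genes or peaks. The members and lists were chosen with earlier results of these data known. All 8 members with every peak are named, and of the other pathway genes those with a promoter peak with its strongest signal, beside the others by count. Some pathway genes without a promoter peak were named outside this rule, with their values seen, and some genes of the list are not reported here. Alternatives were the conservative list, stronger peaks, each replicate alone, and other windows, distances and mismatches.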

Additional observations from a re-analysis of the deposited data

How the results depend on the processing

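Of 33 alternatives, 18 gave a count within 1.5 times the reported one or a value within the spread between replicates. The 30 peaks became 15 among the stronger 28610 peaks of the list, 19 within 10 kb and 48 within 50 kb. Among the stronger peaks, 3 members and 7 other pathway genes had a promoter peak. The share with the core, 73.3%, was 65.5% in the conservative list, 100% among stronger peaks, 36.7% with at most 1 mismatch and 90% with at most 3, and 69.0% to 71.4% with either replicate left out. The median signal percentile, 47.8, was 50.4 in the conservative list, 43.2 within 10 kb, 54.1 within 50 kb and 49.8 to 53.1 with either replicate left out. No paired analysis was possible because there is 1 group. Read depth is unknown, so no interval on a signal is given.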
